A study of Homo sapiens with 12 samples.

Results

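The 8 genes followed here by RNA-seq belong to the cell death machinery: the death receptor genes TNFRSF10A and TNFRSF10B, the initiator caspase genes CASP8, CASP9 and CASP10, and the apoptosis inhibitor genes XIAP, BIRC2 and BIRC3. They were taken by symbol from the gene count table, which lists 58735 genes. All 8 were found and passed the filter on low counts, which 16646 genes passed. The cells were of the human line C4.2B, which was derived from LNCaP prostate cancer cells and grows under castrate conditions, all cultured for the last 24 hours in medium with 10% charcoal-stripped FBS, which is depleted of steroid hormones. The 4 arms of 3 libraries each were DMSO vehicle, ipatasertib at 0.25 μM (an AKT inhibitor, AKTi), tazemetostat at 1 μM (an EZH2 inhibitor, EZH2i) and both agents (combination). Tazemetostat was given for 6 days beforehand in the EZH2i and combination arms and was kept on during the last 24 hours. Ipatasertib was given for these 24 hours only, so exposure to tazemetostat was longer than to ipatasertib. Only 1 cell line was sampled. The study's methods describe triplicate plates for RNA, seeded after the pretreatment. Whether these plates came from separately pretreated cultures is not given in the sources used here, so the p-values measure the spread between plates, which may be technical.

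Apoptosis can start at the cell surface or at the mitochondria. TNFRSF10A (TRAIL-R1, DR4) and TNFRSF10B (TRAIL-R2, DR5) are receptors for the ligand TRAIL; on binding they recruit the adaptor FADD, which gathers the initiator caspases CASP8 and CASP10, and the CASP8-like protein CFLAR (c-FLIP) competes for the same complex. CASP9 is the initiator caspase of the mitochondrial route and is activated on APAF1 after release of cytochrome c. XIAP binds and inhibits caspases including CASP9, whereas BIRC2 and BIRC3 (cIAP1 and cIAP2) are ubiquitin ligases that act mainly on receptor complexes and on NF-kB signaling. Caspases are made as inactive precursors, so the transcript levels measured here are not caspase activity.

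Total counts were 14133755 to 22276417 per library. All 9 markers of luminal prostate epithelium were among the genes tested, and their summed normalized counts were 62639 to 65883 in DMSO and 138931 to 143215 in the combination. KLK3 was a large part of this sum (mean 22384 in DMSO and 63415 in the combination). HOXB13 alone of the 9 was lower in the combination (mean 6925 in DMSO and 4732 in the combination). Markers of other cell types were low: the basal marker KRT5 and the T cell marker CD3E were at 0 in every library, and the summed leukocyte markers reached at most 26.8 normalized counts. The fibroblast list, led by COL1A1, summed to 80.7 to 119 in DMSO, 272 to 316 in EZH2i and 179 to 251 in the combination, while COL1A2 had at most 2 counts in any library. The endothelial list, led by VWF, summed to 35.6 to 47.8 in DMSO and 82.0 to 118 in the combination, with PECAM1 and CDH5 at or near 0. The part of these genes in the results below was not tested. Within an arm, the libraries varied beyond sampling noise (chi-square per gene of 2.63 to 8.09 between any pair).

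BIRC3 and BIRC2 lie next to each other on chromosome 11, in the same orientation and 7807 bases apart, and BIRC2 had 61.7 times the level of BIRC3 per gene length in DMSO. Their promoter windows are shown to set this pair of unlike level side by side. The windows run from 250 to 35 bases before the RefSeq start site (GRCh38.p14, plus strand), chr11:102317234-102317449 for BIRC3 and chr11:102346964-102347179 for BIRC2. Capitals mark an NF-kB-like match.
BIRC3: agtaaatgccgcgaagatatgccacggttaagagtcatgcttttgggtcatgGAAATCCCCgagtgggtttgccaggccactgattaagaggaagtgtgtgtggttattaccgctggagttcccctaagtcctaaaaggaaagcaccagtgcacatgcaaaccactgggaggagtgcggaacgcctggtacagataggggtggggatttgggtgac
BIRC2: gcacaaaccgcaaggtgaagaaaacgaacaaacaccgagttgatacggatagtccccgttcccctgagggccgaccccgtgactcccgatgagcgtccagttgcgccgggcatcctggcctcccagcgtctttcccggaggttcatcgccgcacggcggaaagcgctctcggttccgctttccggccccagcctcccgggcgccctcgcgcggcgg
The BIRC3 window had 51.9% G and C and 7 CpG dinucleotides, more than 44.7% of all RefSeq promoter windows of this length. The BIRC2 window had 66.7% G and C and 27 CpG dinucleotides, more than 89.7% of windows. The NF-kB-like letters GGGNNTTTC were searched on both strands and occurred once, on the minus strand of the BIRC3 window, at -198 to -190 from the start site. These letters occur in 3.58% of the 35116 windows. The GC box GGGCGG (in 38.4% of windows) and the TATA box TATAAA (in 8.01%) had no match in either window, which says only that these letters are not there.

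The 8 genes spanned a wide range of levels. In DMSO, RPKM (read counts scaled to library size and gene length) were highest for TNFRSF10B at 32.7 ± 2.01 (mean ± SD, n = 3). XIAP followed at 12.8 ± 0.71, TNFRSF10A at 11.4 ± 0.58, BIRC2 at 10.8 ± 1.10 and CASP8 at 4.71 ± 0.38 RPKM. CASP9 at 0.826 ± 0.144, CASP10 at 0.756 ± 0.067 and BIRC3 at 0.180 ± 0.054 RPKM were low, and BIRC3 was above only 9.55% of all tested genes. Within this order the neighbours TNFRSF10A and BIRC2, and CASP9 and CASP10, did not differ beyond their SD. In the combination the order changed below XIAP: BIRC2 was at 13.3 ± 0.71 RPKM and TNFRSF10A at 5.40 ± 0.94, so TNFRSF10A moved from level with BIRC2 to below it. XIAP (14.8 ± 0.79) and BIRC2 then overlapped within 1 SD. CASP9, at 1.78 ± 0.14 RPKM, no longer overlapped CASP10, at 0.732 ± 0.046. The gene lengths came from the count table, where their definition is not given, so levels of different genes are approximate.

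**Figure D1:**
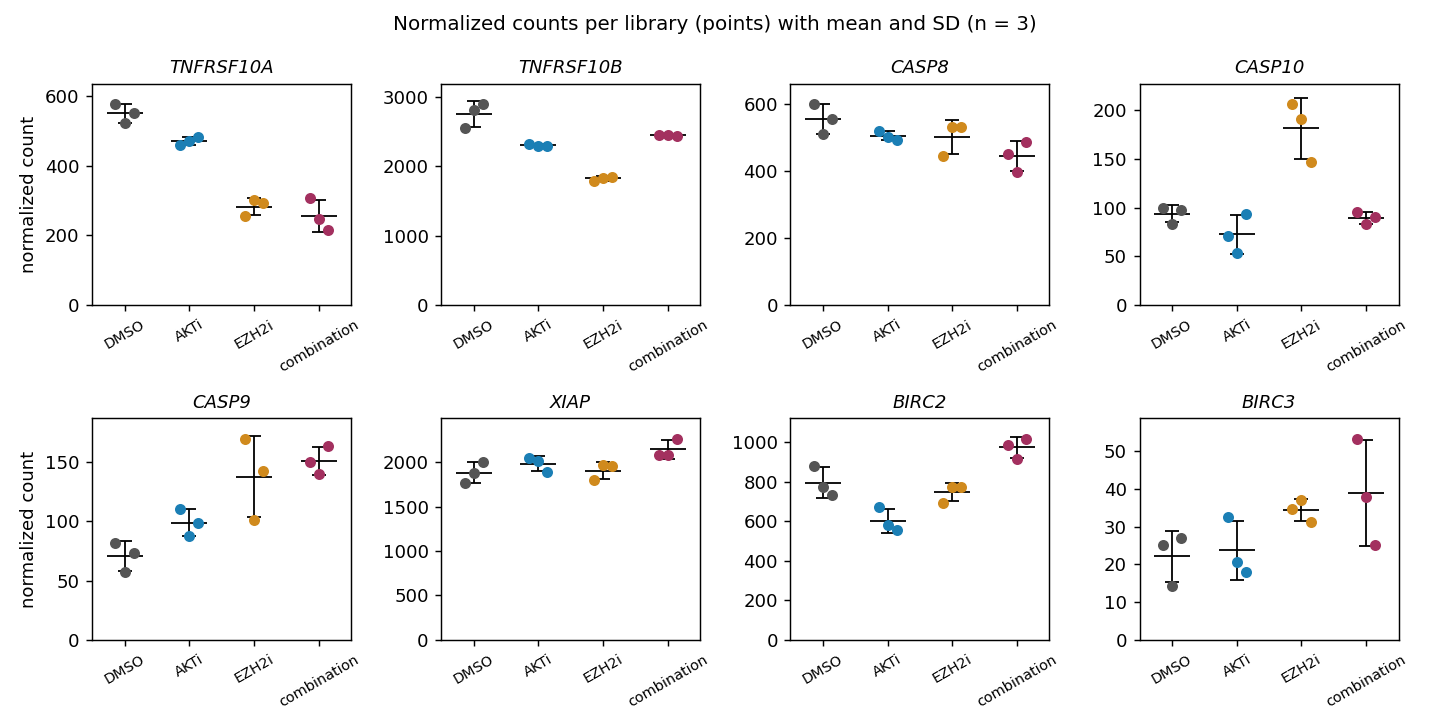
Normalized counts (the authors' values, linear axis from 0) of the 8 genes in each library by treatment arm. Points are single libraries, and the horizontal bar and whiskers are the mean and SD of 3 libraries. TNFRSF10A falls in both EZH2i arms, CASP10 is raised in EZH2i alone, and TNFRSF10B is lowest in EZH2i and 2439 to 2456 in the 3 combination libraries.

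The combination was compared with DMSO first, because it carried both agents. By edgeR's quasi-likelihood test at an adjusted p-value under 0.05, 4 of the 8 genes were higher (CASP9, XIAP, BIRC2 and BIRC3) and 3 were lower (TNFRSF10A, TNFRSF10B and CASP8). Only CASP10 was not called among the 8. These counts stand beside 38.0% of all tested genes called higher and 35.2% called lower, so most genes of the cell differed in this comparison. The median log2 fold change of the 8 genes was 0.08, against 0.06 for all tested genes. AKTi alone called 1 gene higher and 2 lower, against 20.6% and 21.9% of all tested genes, and EZH2i alone called 2 higher and 2 lower, against 32.6% and 31.5%. The 3 treated arms share the same DMSO libraries. In a bulk library, fewer cells with a transcript and less transcript per cell cannot be told apart.

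The death receptor gene TNFRSF10A (ENSG00000104689, hg38 chr8:23190452-23225126, minus strand) had normalized counts of 579, 522 and 552 in DMSO and 459, 471 and 484 in AKTi. It had 257, 301 and 292 in EZH2i and 307, 246 and 217 in the combination. Every library of the 2 EZH2i arms was below every DMSO and AKTi library. The log2 fold change against DMSO was -0.95 (95% confidence interval -1.15 to -0.74, adjusted p = 2.55e-10) with EZH2i and -1.08 (-1.28 to -0.87, adjusted p = 8.11e-12) with the combination, which is 2.11-fold lower. With AKTi it was -0.21 (-0.41 to -0.01) and was not called (adjusted p = 0.0796), although the 3 AKTi libraries lay below the 3 DMSO libraries. Fitted on the libraries of DMSO and AKTi only, the AKTi difference of -0.20 had an adjusted p of 0.0411. The combination did not differ detectably from EZH2i (-0.13, -0.35 to 0.09, adjusted p = 0.336), but without combination replicate A the difference was -0.28 (adjusted p = 0.0424). A transcript on the opposite strand, AC100861.1, overlaps the start of TNFRSF10A and had 246 normalized counts in DMSO, 200 with AKTi, 145 with EZH2i and 142 with both agents. The strand setting of the counting is not given in the sources used here, so reads of the shared stretch cannot be told apart, and their part in the result was not tested.

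TNFRSF10B (ENSG00000120889, chr8:23020133-23069179, minus strand) lies 121272 bases from TNFRSF10A and followed another course. Its normalized counts were 2551, 2816 and 2901 in DMSO, 2318, 2292 and 2294 with AKTi, 1788, 1837 and 1847 with EZH2i, and 2456, 2446 and 2439 with both agents. The EZH2i libraries were the lowest of all, and the combination libraries lay between AKTi and DMSO without overlapping either. Its log2 fold change was -0.25 with AKTi (adjusted p = 0.000283) and -0.59 with EZH2i (adjusted p = 1.03e-11). These add up to -0.84, yet the combination differed from DMSO by only -0.15 (-0.26 to -0.04, adjusted p = 0.0123). The interaction, defined as the log2 difference of the combination from DMSO less the differences of both single agents, was 0.68 (0.53 to 0.84, adjusted p = 1.07e-08). The combination was 1.35-fold higher than EZH2i (log2 0.43, adjusted p = 2.75e-08). The small difference of the combination from DMSO depends on the scaling: it was 0.05 (adjusted p = 0.463) by library size only and 0.03 (adjusted p = 0.586) by upper-quartile scaling. Measured from the median of all tested genes it was -0.21 under TMM, library-size and upper-quartile scaling. These values match by construction, because a scaling shifts all genes of a comparison by about the same amount. Without DMSO replicate C the TMM difference from DMSO was -0.13 (adjusted p = 0.0514). With genes of at least 10 counts in every library it was -0.08 (adjusted p = 0.153). RHOBTB2 overlaps the end of TNFRSF10B on the opposite strand and had 320 normalized counts in DMSO and 402 in the combination, and its part in the result was not tested.

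The initiator caspase genes split. CASP8 (ENSG00000064012, chr2:201233443-201287711) had normalized counts of 602, 512 and 555 in DMSO, 520, 502 and 495 with AKTi, 445, 532 and 532 with EZH2i, and 453, 397 and 486 with both agents. The single-agent libraries overlapped DMSO, and the combination libraries lay below DMSO. The log2 fold change was -0.13 with each single agent (adjusted p = 0.277 for AKTi and 0.203 for EZH2i) and -0.30 (-0.49 to -0.12, adjusted p = 0.00339) in the combination, close to the sum of both, -0.26. The interaction was -0.04 (-0.30 to 0.22, adjusted p = 0.857). By library size only the combination difference was -0.10 (adjusted p = 0.31) and by upper quartile -0.12 (adjusted p = 0.248). Measured from the median of all genes it was -0.36 under TMM and both of these scalings, which match by construction. Without DMSO replicate B, EZH2i also lowered CASP8 (log2 -0.23, adjusted p = 0.0435).

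CASP10 (ENSG00000003400, chr2:201182881-201229406) ends 4036 bases before CASP8 on the same strand. Its normalized counts were 99.5, 83.7 and 98.1 in DMSO, 71.1, 53.5 and 93.7 with AKTi, 207, 192 and 147 with EZH2i, and 95.2, 83.3 and 90.1 with both agents. EZH2i alone stood above all other libraries. It raised CASP10 1.93-fold (log2 0.95, 0.60 to 1.30, adjusted p = 8.25e-06), while the combination was not distinguished from DMSO (-0.05, -0.42 to 0.32, adjusted p = 0.817) and below EZH2i (log2 -1.00, adjusted p = 6.21e-06). The interaction of -0.64 (-1.16 to -0.12) was not called over all genes (adjusted p = 0.0581). It passed the threshold without AKTi replicate B (-0.79, adjusted p = 0.0216) or without EZH2i replicate C (-0.75, adjusted p = 0.0304). AKTi alone gave -0.36 (adjusted p = 0.134), and without AKTi replicate C -0.61 (adjusted p = 0.0215).

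CASP9 (ENSG00000132906, chr1:15490832-15526534, minus strand) showed the largest rise of the 8 genes in the combination. Its normalized counts were 82.0, 57.4 and 73.5 in DMSO, 111, 87.7 and 98.2 with AKTi, 170, 101 and 142 with EZH2i, and 150, 140 and 164 with both agents. All 9 treated libraries were above the 3 DMSO libraries. The log2 fold change was 0.96 (0.59 to 1.32, adjusted p = 1.69e-05) with EZH2i and 1.10 (0.74 to 1.46, adjusted p = 1.05e-06) with the combination, a 2.15-fold rise. The combination exceeded AKTi (0.62, adjusted p = 0.00216) and was not distinguished from EZH2i (0.15, -0.19 to 0.48, adjusted p = 0.497). The AKTi rise of 0.48 (0.09 to 0.87, adjusted p = 0.0393) was close to the threshold, and its call was not stable. The call was lost by DESeq2 (0.47, adjusted p = 0.0784) and with all genes of at least 1 count (0.47, adjusted p = 0.0555). It was also lost without DMSO replicate B (0.34, adjusted p = 0.201), DMSO replicate C (0.50, adjusted p = 0.0695), AKTi replicate A (0.39, adjusted p = 0.159) or AKTi replicate C (0.46, adjusted p = 0.0894).

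The inhibitor gene XIAP (ENSG00000101966, chrX:123859724-123913979) was called in the combination and with neither agent alone. It had normalized counts of 1769, 1882 and 2005 in DMSO, 2048, 2013 and 1888 with AKTi, 1799, 1968 and 1956 with EZH2i, and 2079, 2088 and 2269 with both agents. The combination libraries were the 3 highest of the 12. The combination raised XIAP 1.15-fold (log2 0.20, 0.08 to 0.33, adjusted p = 0.00263), whereas AKTi gave 0.08 (-0.04 to 0.20) and EZH2i 0.03 (-0.10 to 0.15), both not called. The interaction of 0.10 was not called either (adjusted p = 0.44), so a difference in effect between the arms was not shown. Against EZH2i the combination was higher by 0.18 (adjusted p = 0.0135), a call lost without EZH2i replicate A (0.11, adjusted p = 0.167) or combination replicate C (0.13, adjusted p = 0.109) and with all genes of at least 1 count (0.15, adjusted p = 0.0958). EZH2i against DMSO was called by library size only (0.17, adjusted p = 0.015) and by upper-quartile scaling (0.15, adjusted p = 0.0316). Measured from the median of all tested genes, this XIAP difference was -0.003 under TMM, library-size and upper-quartile scaling, which match by construction.

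BIRC2 (ENSG00000110330, chr11:102347211-102378670) was lowered by AKTi and raised by the combination. Its normalized counts were 881, 773 and 731 in DMSO, 669, 578 and 554 with AKTi, 694, 771 and 773 with EZH2i, and 986, 916 and 1018 with both agents. The AKTi libraries were the 3 lowest and the combination libraries the 3 highest. The difference was -0.39 with AKTi (-0.56 to -0.22, adjusted p = 0.000199), -0.08 with EZH2i (-0.24 to 0.09, adjusted p = 0.418) and 0.31 with the combination (0.15 to 0.48, adjusted p = 0.000595), all log2 against DMSO. The single-agent differences sum to -0.47, and the interaction was 0.78 (0.55 to 1.02, adjusted p = 1.48e-06). The combination was 1.63-fold higher than AKTi (adjusted p = 1.57e-09) and 1.31-fold higher than EZH2i (adjusted p = 8.39e-05). The calls of BIRC2 in these 6 comparisons did not change when any library was left out.

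BIRC3 (ENSG00000023445, chr11:102317450-102339403) was close to the limit of what this depth can show, with 12 to 65 reads per library. Its normalized counts were 25.2, 14.3 and 26.9 in DMSO, 32.7, 20.5 and 18.1 with AKTi, 34.7, 37.0 and 31.3 with EZH2i, and 53.3, 38.0 and 25.2 with both agents. The combination overlapped DMSO, and 1 of its libraries lay within the DMSO range. The combination rise was 1.76-fold (log2 0.81, 0.15 to 1.48, adjusted p = 0.026). It was not called by DESeq2 (0.80, adjusted p = 0.0739), without DMSO replicate B (0.56, adjusted p = 0.159) or without combination replicate A (0.51, adjusted p = 0.22). EZH2i gave 0.61 (-0.07 to 1.29, adjusted p = 0.108), with its 3 libraries above the 3 DMSO libraries, and was called by library size only (0.76, adjusted p = 0.0455). AKTi gave 0.08 (-0.64 to 0.81). The interaction, at 0.12 (-0.85 to 1.08, adjusted p = 0.893), could not be judged at these counts.

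**Figure D2:**
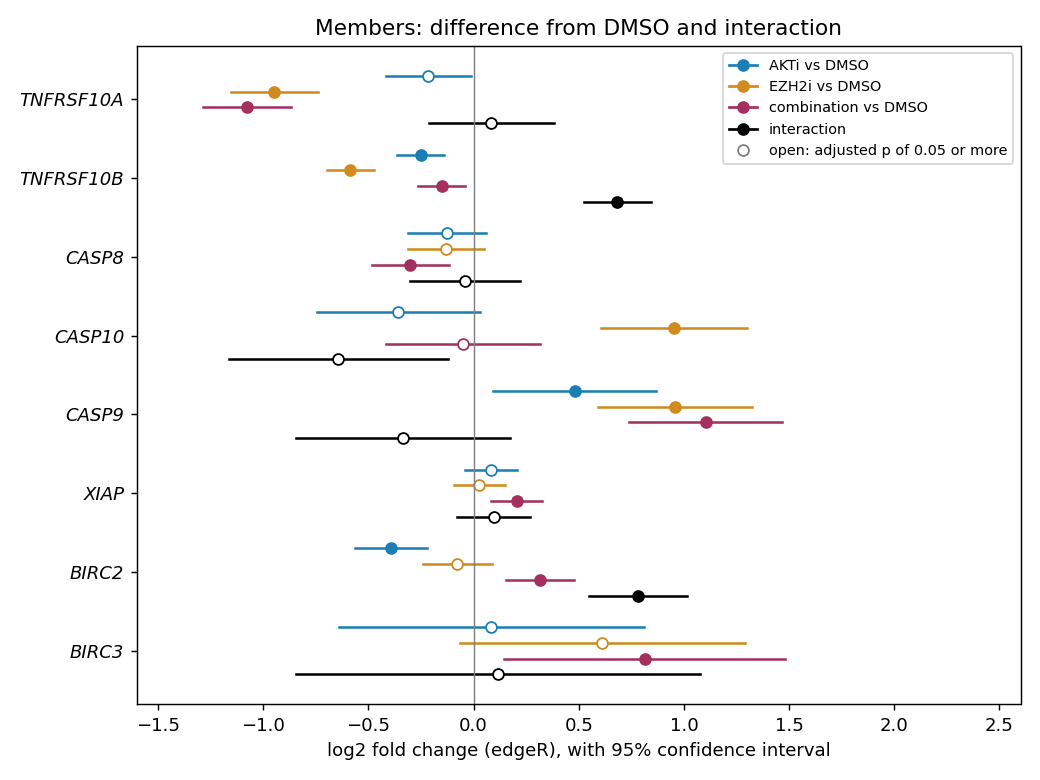
Log2 fold change of each gene (horizontal axis) against DMSO in the 3 treated arms, and the interaction of both agents, from edgeR with TMM scaling. Lines are 95% confidence intervals and filled points have an adjusted p under 0.05. The interaction lies above 0 for TNFRSF10B (0.68) and BIRC2 (0.78), and the negative difference of TNFRSF10B and CASP8 in the combination is lost by library-size or upper-quartile scaling, where TNFRSF10B is slightly above 0.

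The remaining comparisons set the treated arms against each other. The combination against AKTi called 2 of the 8 genes higher (CASP9 and BIRC2) and 1 lower (TNFRSF10A, log2 -0.86), beside 32.1% of all tested genes higher and 32.1% lower. This count is sensitive: 7 genes were called by library size only or by upper-quartile scaling, 6 with at least 10 counts in every library, and 5 without combination replicate C, when CASP8 (-0.24, adjusted p = 0.0377) and BIRC3 (0.95, adjusted p = 0.0172) were added. Calls here also changed when other libraries were left out. BIRC3 was 0.97 without AKTi replicate A (adjusted p = 0.03) and CASP10 was 0.52 without AKTi replicate C (adjusted p = 0.034). CASP8 was -0.23 without EZH2i replicate A (adjusted p = 0.0212). That library is in neither arm compared and enters only through the shared filter, scaling and estimate of spread. The combination against EZH2i called 3 higher (XIAP, BIRC2 and TNFRSF10B) and 1 lower (CASP10), beside 21.1% and 25.7% of all tested genes. CASP8, at -0.17 in this comparison, was called without EZH2i replicate A (-0.28, adjusted p = 0.0141). EZH2i against AKTi called 3 higher (CASP9, CASP10 and BIRC2) and 2 lower (TNFRSF10A and TNFRSF10B), beside 25.4% and 25.1%. The CASP9 difference between the single agents, 0.48 (adjusted p = 0.0228), was not called by DESeq2 (adjusted p = 0.0612). It was also lost without AKTi replicate B (0.37, adjusted p = 0.127), AKTi replicate C (0.44, adjusted p = 0.0689), EZH2i replicate A (0.29, adjusted p = 0.207) or EZH2i replicate C (0.42, adjusted p = 0.0817). The interaction called 2 higher and 0 lower of the 8, beside 10.7% and 17.5% of all tested genes. At an unadjusted p under 0.05, 1 gene, CASP10, had a negative interaction by edgeR, and DESeq2 also called 2 of the 8 genes.

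Because one scaling factor applies to a whole library, the ratio of 2 transcripts within a library does not depend on it. The 7 ratios of counts per gene length given here were formed after the values had been seen, and each was compared between arms by a two-sided exact permutation test of 3 against 3 libraries, whose smallest p is 0.1. Over the 42 tests the smallest Benjamini-Hochberg adjusted p was 0.15, so none can pass 0.05. TNFRSF10A over TNFRSF10B was -1.52 ± 0.16 in DMSO, -1.48 ± 0.05 with AKTi, -1.89 ± 0.10 with EZH2i and -2.46 ± 0.25 with both agents (log2, mean ± SD, n = 3). The combination libraries lay below those of every other arm, at a ratio of 0.181 against 0.350 in DMSO. The decoy receptor TNFRSF10D, which binds TRAIL without a full death domain, stood at 0.289 of TNFRSF10B in DMSO and 0.465 in AKTi. It reached 0.897 in EZH2i and 0.711 in the combination, with no overlap between any of the 4 arms. CASP8 over its competitor CFLAR was at a ratio of 2.48 in DMSO, 2.20 in AKTi, 1.41 with EZH2i and 1.05 with both agents, and the libraries of the EZH2i arms did not overlap those of the other two or each other. CASP10 over CASP8 was 0.161 in DMSO, 0.342 in EZH2i and 0.192 in the combination.

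The ratio of caspase to inhibitor was followed in the same way. CASP9 over XIAP was 0.064 in DMSO, 0.085 with AKTi, 0.121 with EZH2i and 0.121 with both agents. In EZH2i and the combination every library was above DMSO, and the AKTi libraries overlapped DMSO. CASP9 over CASP8 was 0.174 in DMSO and 0.467 in the combination, with no overlap. BIRC3 stayed far below BIRC2 in every arm, between 0.016 in DMSO and 0.028 in EZH2i, and its combination libraries overlapped DMSO.

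**Figure D3:**
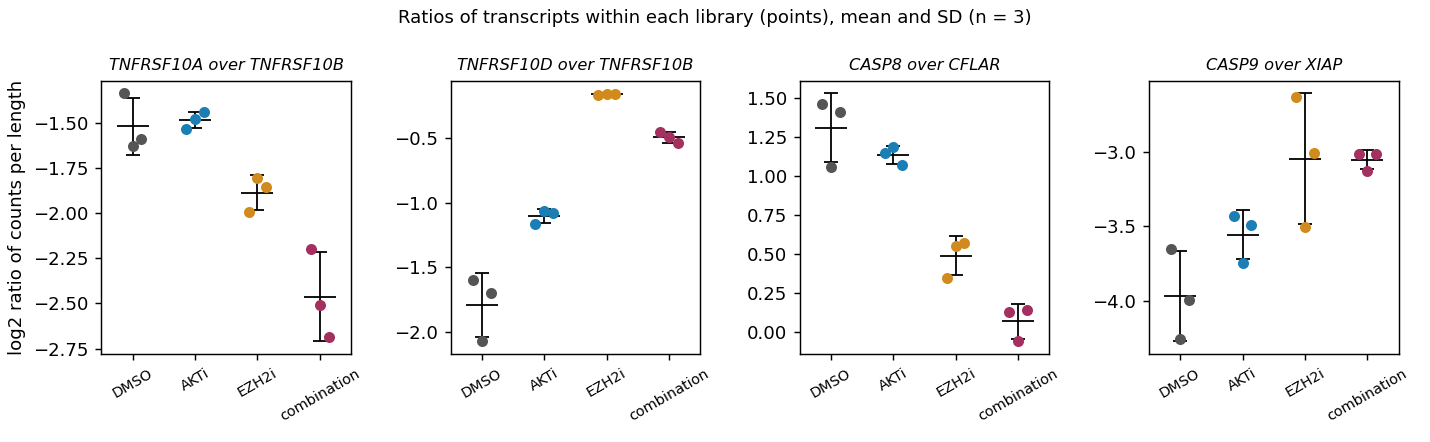
Log2 ratio of 2 transcripts per gene length within each library (vertical axis) by treatment arm. Points are libraries, and bars and whiskers are the mean and SD of 3 libraries. TNFRSF10A over TNFRSF10B is lowest in the combination, TNFRSF10D over TNFRSF10B is highest in EZH2i, CASP8 over CFLAR is lowest in the combination, and CASP9 over XIAP is higher in the EZH2i arms than in DMSO.

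The other genes of these pathways were followed with 10 lists of 62 genes, of which 46 could be tested. In the combination 16 were higher and 17 lower than DMSO, beside 38.0% and 35.2% of all tested genes, with a median log2 fold change of 0.15 against 0.06 for all tested genes. AKTi gave 11 higher and 14 lower (20.6% and 21.9% of all tested genes), EZH2i 17 and 14 (32.6% and 31.5%), and the interaction 4 and 9 (10.7% and 17.5%). The counts by list that follow are of few genes and stand beside the same 38.0% and 35.2% for the combination. With library-size or upper-quartile scaling the combination had 21 higher and 9 lower. The loss of 8 calls under both scalings concerned genes with small decreases, among them CASP2, TNFRSF1A, BID, MAP3K14, OTULIN and NFKBIA.

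At the receptor level, 3 of 6 tested death and decoy receptor genes were higher in the combination and 2 lower. The decoy receptor genes TNFRSF10C (log2 2.58, adjusted p = 1.94e-06) and TNFRSF10D (1.13, adjusted p = 5.56e-16) were higher, as was the death receptor gene TNFRSF21 (DR6, 0.35, adjusted p = 4.42e-05). The death receptor genes FAS (-1.18, adjusted p = 5.36e-07) and TNFRSF1A (-0.24, adjusted p = 0.00136, lost by library-size scaling) were lower. TNFRSF10C was low, with 6.49 normalized counts in DMSO and 37.8 in the combination, and TNFRSF11B was too low to test. The 4 TRAIL receptor genes are related in sequence, and how the counting treated reads shared between them is not given in the sources used here. The TRAIL gene itself, TNFSF10, was lower with AKTi (-1.03, adjusted p = 0.00019), higher with EZH2i (0.76, adjusted p = 0.000478) and not called in the combination (0.12, adjusted p = 0.578). The other ligand genes FASLG, TNF and LTA had at most 3 counts in any library.

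In the list of the receptor complex and its downstream genes, 3 of 7 were higher and 4 lower in the combination. CFLAR (0.94, adjusted p = 9.36e-15) and the adaptor TRADD (0.62, adjusted p = 1.17e-05) were higher. FADD, the adaptor of the TRAIL receptors, was lower (-0.65, adjusted p = 8.56e-05). The necroptosis effector MLKL (-2.51, adjusted p = 9.9e-14) and TRAF2, a partner of BIRC2 and BIRC3 (-0.94, adjusted p = 3.67e-11), were lower, and RIPK3 was too low to test. CFLAR had 698 ± 60.0 normalized counts in DMSO and 1316 ± 49.9 in the combination (mean ± SD, n = 3). Of the apoptosome, APAF1 was higher (1.23, adjusted p = 5.87e-10) and CYCS, the cytochrome c gene, was lower (-2.48, adjusted p = 2.12e-30). Of 5 other tested caspase genes, CASP4, an inflammatory caspase, was higher (0.88, adjusted p = 4.22e-06). CASP2 (-0.31) was lower, a call lost by library-size and upper-quartile scaling, and CASP1, CASP5 and CASP14 were too low to test.

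Among the other IAP genes, BIRC6 was higher (0.55, adjusted p = 1.33e-09), BIRC5 (survivin, also a mitotic gene) was lower (-3.17, adjusted p = 2.77e-30), NAIP was not called, and BIRC7 and BIRC8 were at 0. Of the IAP antagonist genes, SEPTIN4 was higher (2.89, adjusted p = 1.67e-06) from 3.97 to 29.9 normalized counts and HTRA2 was lower (-0.46, adjusted p = 0.000843). DIABLO, listed on 2 overlapping rows whose reads cannot be assigned with certainty, was not called, and XAF1 was too low to test. Among 9 partners and ubiquitin-editing genes of BIRC2 and BIRC3, the deubiquitinase gene CYLD (0.94, adjusted p = 2.8e-14) and SHARPIN (0.20, adjusted p = 0.0147) were higher. TRAF3 (-0.49, adjusted p = 4.99e-08) and MAP3K14, the NIK kinase of noncanonical NF-kB signaling (-0.33, adjusted p = 0.0072, lost by library-size scaling), were lower.

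Of the NF-kB target genes, to which BIRC3 is also commonly assigned, 1 of 6 tested was higher and 2 were lower in the combination. ICAM1 was higher (0.93, adjusted p = 4.27e-08), and NFKB1 (-0.54, adjusted p = 1.3e-09) and NFKBIA (-0.20, adjusted p = 0.0147) were lower, the last not by library-size or upper-quartile scaling. TRAF1, CXCL8, CXCL1 and CCL20 were too low to test, and SOD2 was on 2 overlapping rows and was not tested. Of 4 regulators of TNFRSF10B, the stress-response genes DDIT3 (CHOP) and ATF4 were, like TNFRSF10B, lower with each single agent and had a positive interaction, but they were above DMSO in the combination. DDIT3 had normalized counts of 445 ± 48.9 in DMSO, 310 ± 3.27 with AKTi, 275 ± 39.5 with EZH2i and 1391 ± 25.3 with both agents, and its interaction was 2.84 (adjusted p = 3.88e-19). ATF4 had an interaction of 1.53 (adjusted p = 3.79e-19) and a combination difference of 0.58 (adjusted p = 4.6e-13).

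**Figure D4:**
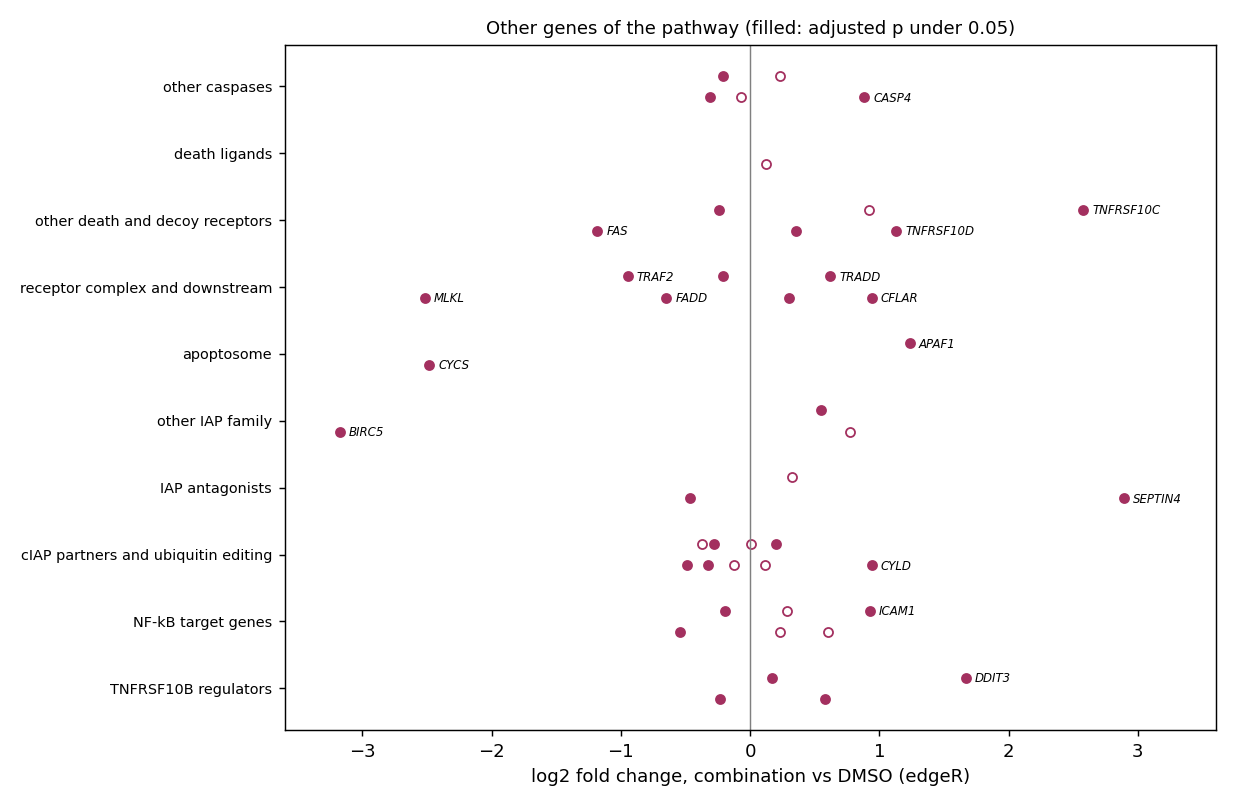
Log2 fold change of the combination against DMSO (horizontal axis) for the 46 other pathway genes tested, grouped by list (rows). Filled points have an adjusted p under 0.05, and called genes beyond 0.6 on either side are named. Decreases of 0.33 or smaller are lost under library-size or upper-quartile scaling.

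Genes with the course most like each member over the 12 libraries were found among 13082 other protein-coding genes by the root mean square difference of log2 CPM (TMM-scaled counts), each gene centred on its DMSO mean. The nearest to TNFRSF10B were MDM2 (0.06) and MAT2A (0.06), and to BIRC2 they were TRAK2 (0.10) and GPAM (0.11). For TNFRSF10A they were IMP3 and MTPAP (0.09 each), for CASP8 ESCO1 (0.07) and DCAF16 (0.08), and for XIAP ITPRID2 (0.04) and GGPS1 (0.06). The neighbours of the low-count genes lay farther off: CASP9 was nearest to ZCWPW1 (0.16) and GNAI2 (0.17), BIRC3 to ZNF2 (0.18) and ZNF436 (0.21), and CASP10 to GOLIM4 (0.21) and SALL4 (0.23). Within a difference of 0.2 there were 1236 genes for CASP8, 1330 for XIAP, 401 for TNFRSF10B, 296 for TNFRSF10A, 149 for BIRC2, 39 for CASP9, 1 for BIRC3 and 0 for CASP10. The measure describes these libraries only, and genes that vary little resemble each other by construction.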

How the data were processed

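PolyA RNA of 12 C4.2B cell libraries (4 arms, 3 each) was sequenced. The authors aligned reads to hg38 with STAR and counted them on genes with HTSeq, and deposited these raw counts for 58735 genes. A further table by the authors holds a signal per gene name, the count normalized with DESeq2. Dividing the counts by a single factor for each library gave these values back for all 56994 names compared. Tool versions, annotation and strand setting are not given in the sources used here. The paper names 2 sequencing routes without assigning libraries. Whether these 12 libraries were split between the routes, and whether a split followed the arms, is not given. Sequencing batch was therefore not modelled, and its part in the results was not tested.

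Counts were tested in R 4.3.3 with edgeR 4.0.16. Low genes were removed by filterByExpr (at least 10 counts in enough libraries, 15 in total), followed by TMM scaling, 1 mean per arm over all 12 libraries, quasi-likelihood tests of 7 contrasts and Benjamini-Hochberg adjustment over 16646 genes at 0.05. On simulated data for the combination against DMSO, run on 16190 genes, 55 of 97 genes changed 1.5-fold and 77 of 98 changed 2-fold were recovered, with 14 false calls. For the interaction 39 of 97 and 68 of 98 were recovered. The simulation changed few genes, in random directions, so it cannot give the rate of false calls where most genes differ. The gene length column was used for RPKM. Ratios were compared by exact permutation in R, and the pseudocount for likeness was 0.5 CPM. The promoter windows are from RefSeq, in which 5 of the 8 genes were matched.

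The members and gene lists were chosen with earlier results of these data known. Named are all 8 members and, per pathway list in the combination, up to 2 largest called increases and decreases and the genes too low to test, plus the 2 most similar genes per member. TNFSF10, FADD, TNFRSF21 and other pathway genes outside this rule, and the ratios, were chosen after their values were seen. Results of some listed genes are not reported here. The alternatives were DESeq2 1.42.0, other scalings, other filters on low counts, fits to only the arms compared, a block for the replicate letter, and leaving out 1 library at a time.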

Additional observations from a re-analysis of the deposited data

Results flagged for a closer look

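For 2 genes the effect of ipatasertib differed between cells with and without tazemetostat, as tested by the interaction term of edgeR's quasi-likelihood fit. For BIRC2 the effect was higher in the presence of tazemetostat by 0.78 on the log2 scale (adjusted p = 1.48e-06): the difference was -0.39 without it and 0.39 with it. For TNFRSF10B it was higher by 0.68 (adjusted p = 1.07e-08): the difference was -0.25 without tazemetostat and 0.43 with it. In both genes all 3 ipatasertib libraries lay below DMSO and all 3 combination libraries lay above EZH2i. Groups of 3 libraries were not screened for single libraries that stand apart.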

How the results depend on the processing

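Of 56 member comparisons, 28 were called. Per comparison, 10.7% (interaction) to 38.0% (combination against DMSO) of all tested genes were called higher and 17.5% to 35.2% lower. The comparisons share arms, so these calls are not independent. The median log2 fold change of all genes in the combination against DMSO was 0.06 under TMM, 0.26 under library size only and 0.25 under upper-quartile scaling. By library size only, 61.3% of calls were higher in EZH2i against DMSO (50.8% with TMM), 60.2% in the combination against AKTi (50.0%) and 60.8% in EZH2i against AKTi (50.3%). The members called in the combination against AKTi numbered 3 with TMM, 7 by library size only, 7 by upper quartile, 6 with at least 10 counts in every library and 3 to 5 with 1 library left out. Several log2 differences changed sign. In the combination against DMSO, TNFRSF10B became 0.045 by library size and 0.032 by upper quartile, and CASP10, not called, 0.15, 0.14 and, with at least 10 counts, 0.018. In EZH2i against DMSO, values not called became 0.014 for CASP8 by library size and 0.069 and 0.043 for BIRC2 by library size and upper quartile. In EZH2i against AKTi, CASP8 became 0.082, 0.058 and, with at least 10 counts, 0.029, and XIAP 0.031 by library size and 0.0066 by upper quartile. Measured from the median of all tested genes, these differences kept their sign under TMM, library-size and upper-quartile scaling. That holds by construction, because a scaling shifts all genes of a comparison by about the same amount. In the combination against DMSO, TNFRSF10B was -0.21 and CASP10 -0.11 under each of these scalings. In EZH2i against DMSO, CASP8 was -0.16 and BIRC2 -0.11, and in EZH2i against AKTi, CASP8 was -0.020 and XIAP -0.071. Under library-size and upper-quartile scaling the sign changes accompany a shift of all genes. In the combination against DMSO the median of all genes moved by 0.20 and 0.18 from TMM. The cause of the sign changes with at least 10 counts in every library was not tested.

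With 1 library left out, values not called crossed 0 within these ranges: -0.22 to 0.25 for BIRC3 in AKTi against DMSO, -0.030 to 0.065 for XIAP and -0.15 to 0.0026 for BIRC2 in EZH2i against DMSO, -0.035 to 0.28 for CASP9 and -0.10 to 0.42 for BIRC3 in the combination against EZH2i, and -0.072 to 0.051 for CASP8 in EZH2i against AKTi. For the interaction they were -0.15 to 0.041 for CASP8, -0.19 to 0.38 for BIRC3 and -0.068 to 0.19 for TNFRSF10A. Of the called results, 5 lost their call in 13 leave-one-out fits, all named with the results. The replicate letters did not pair the libraries: no pair of same-letter libraries of different arms had a correlation over 0.1 (-0.07 to 0.09 over 18 pairs), and 4 of 12 libraries correlated best with their own letter. The replicate block left every member count unchanged, with 7 in the combination against DMSO and 2 for the interaction. BIRC3, at 12 to 65 reads per library, is limited by depth.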
